A study of Mus musculus with 24 samples.

Results

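Solute carriers are the membrane proteins of the Slc gene families, which move ions, nutrients, metals, vitamins and metabolites across cell and organelle membranes. The genes described here have a probe symbol that starts with Slc and a digit, and their brightest probe had a detection score above 0.99 on at least 12 of the 24 arrays. Of 356 such genes on the array, 6 were left out by name (Slc51a, Slc51b, Slc10a2, Slc8a1, Slc20a1 and Slc34a2, of which 4 passed the detection rule). Of the other 350 genes, 154 passed and are described here, 92 of them with detection on all 24 arrays, 46 on 18 to 23 and 16 on 12 to 17. The series holds 19057 genes with a symbol of their own, and 8901 of them passed the same detection rule. The members were chosen by these detection values, so that their being detected is no result.

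Proximal colon RNA of 24 male 129/SvEv IL-10 KO mice, aged 3 months, was hybridised to Illumina MouseWG-6 arrays, with 6 mice in each of 4 groups (HH, HL, LH, LL). In these names the first letter stands for the diet of the mother through pregnancy and lactation, and the second for the diet of the pup after weaning. The high (H) diet held 5000 IU and the low (L) diet 25 IU of vitamin D per kg. All groups lacked IL-10, whose loss leads to spontaneous inflammation of the gut, and no wild-type mouse or intermediate dose was among the arrays. HH and LH mice are set against HL and LL mice for the post-weaning diet, and HH and HL mice against LH and LL mice for the pre-weaning diet. All levels are log2 intensities after quantile normalization, and a difference of 1 on this scale is a factor of 2.

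In the colon, the surface epithelium takes up sodium and chloride through the paired exchangers Slc9a3 and Slc26a3 on its luminal side, and absorbs the short chain fatty acids that bacteria make from fiber. Crypt cells secrete chloride that Slc12a2 brings in from the blood side. Other solute carriers sit in the inner mitochondrial membrane, in the Golgi apparatus, where they supply sugar nucleotides for mucins, and in the lysosomes and phagosomes of immune cells. The samples were pieces of whole tissue, in which fewer cells of a type and less RNA per cell cannot be told apart.

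The arrays differed in the share of probes detected, which is read here only as a rough sign of library quality. The labels give no RNA integrity value per mouse. The share of all probes detected reached from 29.5% to 37% among HH mice, from 21.2% to 36.1% among HL mice, from 23.5% to 34.7% among LH mice and from 21.9% to 36.3% among LL mice. It was lowest in the mice HL 2A, LL 3B and LH 6A, at 21.2%, 21.9% and 23.5%, where 107, 107 and 119 of the 154 members were detected. The next lowest share was 27.2%. Epithelial markers (Krt8, Krt20, Cdh1, Vil1, Cdx2) were detected on all 24 arrays. The probe of a further epithelial marker, Epcam, was detected on 0, so a probe without signal does not show that its gene was silent. Pancreatic genes were detected in HL 8C, LL 12 and LL 13A, on arrays of the low post-weaning diet. Where these values bear on a result they are given beside it.

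The members with the brightest probes covered several transport roles. Slc25a5 (ILMN_2660099), an ADP/ATP exchanger of the inner mitochondrial membrane, averaged 13.94 ± 0.18 in HH mice, 13.88 ± 0.37 in HL mice, 13.78 ± 0.37 in LH mice and 13.75 ± 0.25 in LL mice, with the SD over 6 mice. Slc12a2 (ILMN_2700059), the sodium, potassium and chloride cotransporter of the blood side, averaged 12.79 ± 0.26 in HH mice, 12.73 ± 0.59 in HL mice, 12.73 ± 0.17 in LH mice and 12.88 ± 0.20 in LL mice. Slc5a8 (ILMN_2739384), which takes up short chain fatty acids with sodium, was at 12.20 ± 0.22, 12.12 ± 0.53, 12.26 ± 0.19 and 12.24 ± 0.17 in HH, HL, LH and LL mice. Group means of these 3 genes lay within the spread between mice. The wider spread of Slc12a2 and Slc5a8 in HL mice came with 1 mouse, HL 10, at 11.62 for Slc12a2 and 11.10 for Slc5a8. The other members among the 15 brightest included the GDP-fucose carrier Slc35c1, the mitochondrial phosphate carrier Slc25a3, the choline carrier Slc44a1 and its relative Slc44a4. They also held the carnitine and acylcarnitine carrier Slc25a20, the taurine carrier Slc6a6, the iron exporter Slc40a1 (ferroportin) and the citrate and dicarboxylate carrier Slc13a2. Slc35b1, Slc35b3 and Slc66a2 were in this set as well. Slc9a3r1, also among them, encodes a scaffold protein that binds Slc9a3 and is 1 of 4 members that are not carriers themselves (with Slc9a3r2, Slc4a1ap and Slc7a6os). A probe's signal depends on its own sequence as well as on the mRNA, so levels of different genes are not ranked further.

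**Figure D1:**
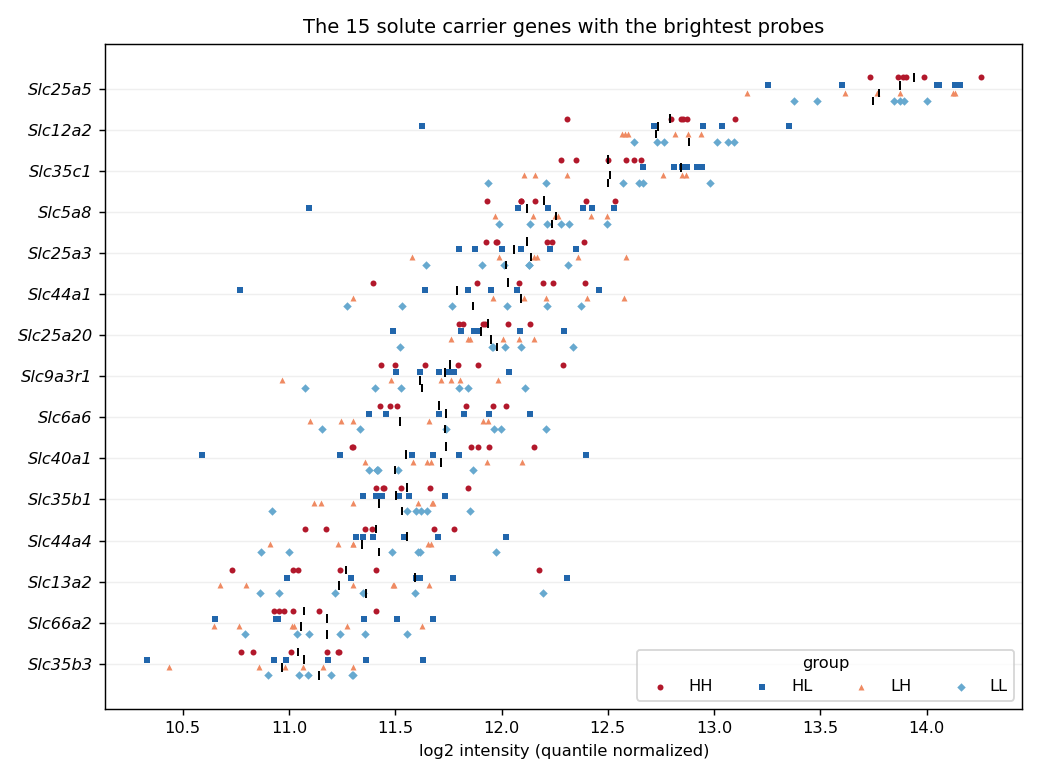
Log2 intensity of the 15 members with the brightest probes. Each point is 1 mouse, colored by group from HH (top) to LL (bottom) within each gene, and each black bar is a group mean (n = 6). The ranges of the 4 groups overlap for every gene except Slc35c1, where the lowest HL mouse (12.67) lies just above the highest HH mouse (12.66), and the mouse HL 10 stands apart at 11.62 for Slc12a2 and 11.10 for Slc5a8.

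Several carriers known for a role in the colon did not meet the detection rule. The probes of Slc16a1, a carrier of short chain fatty acids and lactate, Slc6a14, a broad amino acid carrier, and Slc2a5, the fructose carrier, were detected on 0 arrays. Those of Slc26a6, an anion exchanger, Slc16a3, a lactate exporter, and Slc15a1, a peptide carrier, were detected on 1 array. Slc30a10, a manganese exporter, was detected on 5 arrays and Slc3a2, the heavy chain of several amino acid exchangers, on 9. Slc7a5 had no probe under this name. At the threshold, Slc15a2 (peptides), Slc39a8 (zinc and manganese) and Slc38a1 (neutral amino acids) were included with 12 arrays, at mean levels of 7.50, 7.35 and 7.32, and Slc46a1 (folate) and Slc2a10 (a sugar carrier family member) were left out with 11, at 7.32 and 7.30. The level of members therefore starts close to that of undetected probes, whose median was 7.09. In all, 67 of the 350 genes were detected on 1 to 11 arrays and 129 on 0.

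For the post-weaning diet, the members with the smallest p-values all had lower levels on the high diet except the last of the 8. Slc7a9 (ILMN_2730651), the light chain of the cystine and dibasic amino acid exchanger, ranged over 7.13 to 7.67 with a median of 7.35 on the high diet (HH and LH), and over 7.31 to 8.64 with a median of 7.65 on the low diet (HL and LL). All 12 mice on the high diet lay below the mean of the mice on the low diet, but the ranges overlapped, and the highest value, 8.64, belonged to LL 6. The difference was -0.34 (95% confidence interval -0.59 to -0.09, limma adjusted p = 0.944, unadjusted p = 0.00942). Without HH 10B, HL 10B and LL 6 it was -0.27. A second probe of Slc7a9, detected on 9 arrays, had a difference of -0.14 (limma unadjusted p = 0.207). In the 3 mice with pancreatic RNA, Slc7a9 was at 7.37 (HL 8C), 7.52 (LL 12) and 7.31 (LL 13A), all below the mean of HL and LL mice, 7.71.

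Slc24a3 (ILMN_2838501), a sodium and calcium exchanger that also moves potassium, ranged over 8.68 to 9.79 with a median of 9.13 on the high diet (HH and LH), and over 8.75 to 10.12 with a median of 9.48 on the low diet (HL and LL). The difference was -0.34 (95% confidence interval -0.63 to -0.05, limma adjusted p = 0.944, unadjusted p = 0.0249), and 11 of 12 mice on the high diet lay below the low-diet mean. The highest levels were in HL 10B (10.12), LL 6 (9.99), HL 2A (9.87) and LL 3B (9.80). HL 2A and LL 3B had the lowest detected share, at 21.2% and 21.9%. LH 6A, next lowest at 23.5%, was at 9.48 on the high diet. HL 10B and LL 6 had the highest summed level of the smooth muscle markers, 15.35 and 15.52. Over the groups, that summed level (Acta2, Myh11, Des, Actg2, Tagln and Cnn1, of which 5 of 6 were detected on 12 or more arrays and none on 0) was 14.26 to 15.15 on the high diet and 14.40 to 15.52 on the low diet. Averages of other marker sums also differed between these diets, with ranges that overlapped, and these differences were not tested. The sum of neutrophil and macrophage markers averaged 13.98 (12.80 to 14.36) on the high diet against 13.64 (12.29 to 14.44) on the low, and that of adipocyte markers averaged 9.02 (8.55 to 9.90) against 9.36 (8.58 to 10.17) on the low diet. Of the 3 adipocyte markers on the array, Adipoq was detected on 16 arrays, Fabp4 on 1 and Plin1 on 0. The parts of these cell types and of library quality in the Slc24a3 difference, and in the other post-weaning differences, were not tested. Without HH 10B, HL 10B and LL 6 the difference was -0.30.

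Among the ion exchangers of the blood side and the lumen, Slc4a2 alone was under an unadjusted p of 0.05 for this diet. Slc4a2 (ILMN_1239662), the chloride and bicarbonate exchanger of the blood side, ranged over 10.26 to 10.84 with a median of 10.47 on the high diet (HH and LH), and over 10.30 to 11.23 with a median of 10.71 on the low diet (HL and LL). Its difference was -0.20 (95% confidence interval -0.39 to -0.02, limma adjusted p = 0.944, unadjusted p = 0.0297), with 11 of 12 high-diet mice below the low-diet mean. Slc9a3 (ILMN_1245464), the sodium and proton exchanger of the lumen, spread widely, at 10.67 ± 0.66 on the high diet (HH and LH) and 10.97 ± 0.67 on the low diet (HL and LL), as mean and SD of 12 mice each. Its interval, -0.86 to 0.25, spans 0, and so do those of Slc26a3 (ILMN_2545805), the chloride and bicarbonate exchanger of the lumen, with -0.64 to 0.23, and Slc4a4, a sodium and bicarbonate cotransporter, with -0.51 to 0.20. Slc9a2, Slc12a7, a potassium and chloride cotransporter, and Slc26a2, a sulfate carrier, had differences of 0.03, 0.06 and 0.00.

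The other 3 members with an unadjusted p under 0.05 were Slc6a9, Slc39a3 and Slc25a28. Slc6a9, the glycine carrier, was at 8.81 ± 0.08 on the high diet (HH and LH) and 8.96 ± 0.19 on the low diet (HL and LL), as mean and SD of 12 mice each, and all 12 high-diet mice lay below the low-diet mean. Slc25a28 (mitoferrin-2), which brings iron into mitochondria, was at 10.09 ± 0.25 on the high diet against 10.30 ± 0.24 on the low. Its highest levels were in HL 10 (10.71), LL 3B (10.555) and HL 2A (10.53), of which LL 3B and HL 2A had the lowest detected share. LH 6A, with the next lowest share, was at 10.39 on the high diet. Slc39a3, a zinc importer, was at 7.28 ± 0.18 on the high diet against 7.42 ± 0.17 on the low, near the detection threshold with 16 arrays detected. Their differences were -0.15, -0.22 and -0.14, each with limma adjusted p = 0.944. That of Slc39a3 was -0.10 without the mouse HL 10, which was at 7.85 against 7.34 to 7.45 in the other HL mice. Slc22a7, an organic anion carrier, followed with -0.14, and Slc7a6, a light chain of an exchanger of cationic and neutral amino acids, with 0.09. Median scaling in place of quantile normalization raised the median of all detected genes by 0.071 for this diet. With it, the differences were -0.04 for Slc6a9, -0.11 for Slc25a28, -0.04 for Slc22a7 and -0.10 for Slc4a2, beside -0.23 for Slc7a9 and -0.21 for Slc24a3. Those of Slc39a3 and Slc7a6 kept their sign. None of these differences passed the adjustment, and in the plot of single mice the 2 diets overlap for each of the 8 genes.

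**Figure D2:**
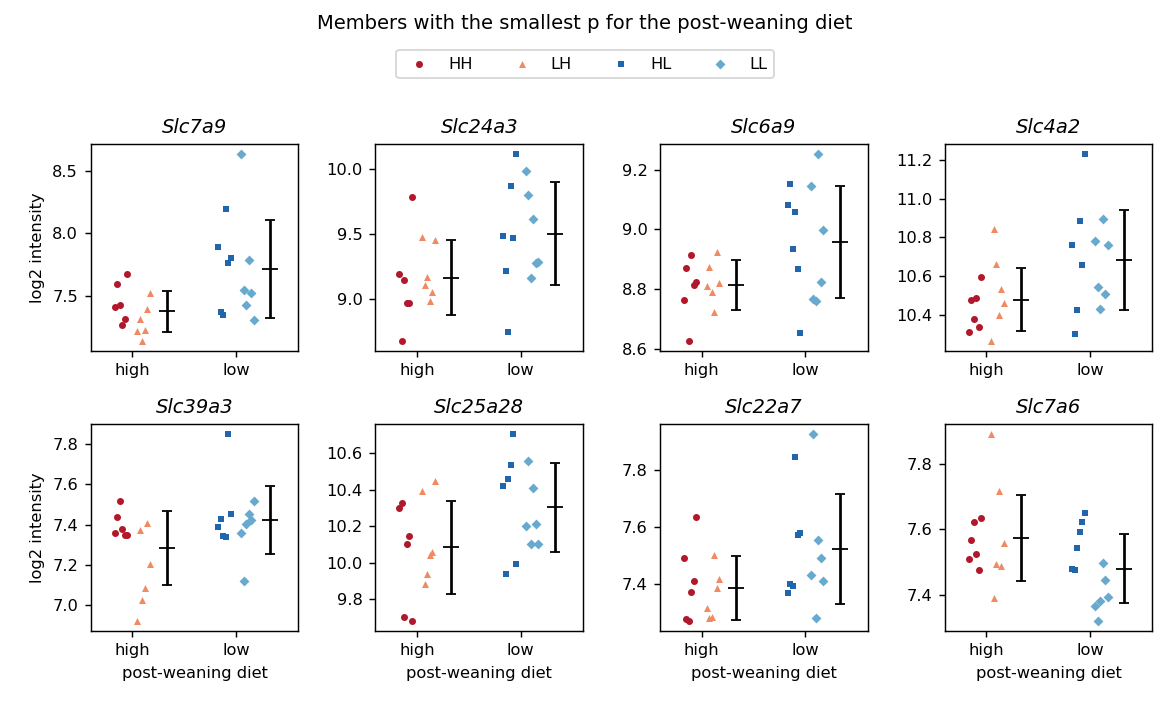
Log2 intensity of the 8 members with the smallest p for the post-weaning diet, in HH and LH mice (high, left) and HL and LL mice (low, right). Each point is 1 mouse, and the bar with its whiskers gives the mean and SD of the 12 mice on a diet. Levels on the high diet are lower on average for 7 genes and higher for Slc7a6, and the values of the diets overlap in every panel.

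Over all members, 0 of 154 differed by post-weaning diet at a limma adjusted p under 0.05 (smallest 0.944), as did 0% of the 31298 probes tested. At an unadjusted p under 0.05 there were 6 members, or 3.90% of 154, against 4.22% of all probes tested and 4.44% of the 8901 detected genes. All 6 were lower and 0 higher on the high diet, where 2.88% of the detected genes were lower and 1.56% higher at that threshold. Differences were positive for 59 members and negative for 95, so that 38.3% were higher on the high diet, against 47.4% of all detected genes, and the median was -0.02 for the members and -0.01 for the detected genes. The sign of a small difference depended on the scaling, which shifted detected genes as a whole: with median scaling, 67.5% of the members (104 of 154) and 75.4% of the detected genes were higher, with medians of 0.04 and 0.06. Relative to the median of the detected genes, 65 members lay above and 89 below with quantile normalization, and 57 above and 97 below with median scaling. The 95% interval of a member's difference extended 0.20 to either side at the median.

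For the pre-weaning diet, 1 member had an unadjusted p under 0.05. Slc39a3 (ILMN_2977240) was at 7.43 ± 0.14 in HH and HL mice and 7.27 ± 0.19 in LH and LL mice (SD, n = 12 each), a difference of 0.16 (95% confidence interval 0.03 to 0.29, limma adjusted p = 1, unadjusted p = 0.0194). Each of the 12 mice born to high-diet mothers exceeded the mean of the others. Without HL 10, which was at 7.85, the difference was 0.12. The lowest 4 values were in LH 6A, LH 13, LH 2 and LL 3B, at 6.92, 7.02, 7.09 and 7.12, of which LH 6A and LL 3B had the fewest detected probes among LH and LL mice. The part of library quality in this difference was not tested. Without the 3 arrays of lowest detected share the count of members at that threshold was also 1, which does not tell which member it was. The share of all probes was not computed in that fit.

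The other members with the smallest p-values for the pre-weaning diet were Slc30a1, a zinc exporter, Slc15a2 and Slc15a4, which carry peptides, Slc35c1, Slc35a2, the UDP-galactose carrier, Slc10a7 and Slc35f6, with differences of -0.10 to 0.19 and limma unadjusted p of 0.101 or above. Slc35c1 averaged 12.50 ± 0.15 in HH mice, 12.84 ± 0.10 in HL mice, 12.51 ± 0.36 in LH mice and 12.50 ± 0.37 in LL mice, with the SD over 6 mice. A second detected probe of Slc35c1 had a pre-weaning difference of 0.09, against 0.17 for the brighter probe. With limma, 0 of 154 members and 0% of 31308 probes passed (smallest adjusted p = 1). The 1 member at an unadjusted p under 0.05 is 0.649% of 154, against 2.72% of all probes and 1.30% of the detected genes. A high maternal diet went with higher levels of 84 members and lower levels of 70, with a median difference of 0.01. Under median scaling 143 members (92.9%) were higher and 11 lower, as were 93.3% of the detected genes. Relative to the median of the detected genes, 78 members lay above, 75 below and 1 at it with quantile normalization, and 75 above and 79 below with median scaling.

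Whether the post-weaning effect depended on the mother's diet was read from the interaction, HH minus HL less LH minus LL. Slc5a9 (ILMN_1242204), a sodium-coupled sugar carrier, was at 7.94 ± 0.13 in HH and 8.17 ± 0.11 in HL mice, and at 8.11 ± 0.18 in LH and 8.03 ± 0.19 in LL mice, with the SD over 6 mice, which gave an interaction of -0.32 (limma adjusted p = 1, unadjusted p = 0.0189). Its second detected probe had an interaction of the opposite sign, 0.06. Slc7a6 was at 7.56 ± 0.06 in HH and 7.56 ± 0.07 in HL mice and at 7.59 ± 0.18 in LH and 7.40 ± 0.06 in LL mice, an interaction of -0.20 (limma unadjusted p = 0.0399). Under median scaling, with which the median interaction of the detected genes was 0.36, against 0.02 with quantile normalization, these were -0.06 for Slc5a9 and -0.01 for Slc7a6. Slc35d2, a sugar nucleotide carrier, and Slc35e2 followed with 0.23 and 0.29, or 0.40 and 0.60 under median scaling. The 2 members under the unadjusted threshold are 1.30% of 154, against 2.94% of 37654 probes and 1.46% of the detected genes, and 0 members and 0% of the probes passed the adjustment (limma, smallest adjusted p = 1). A test for any difference among the 4 groups also gave 0 members and 0% of 37654 probes (limma, smallest adjusted p = 0.998), with 2 members (1.30%) under the unadjusted threshold, against 2.47% of all probes and 1.47% of the detected genes. Leaving out 1 array gave 1 to 6 members under that threshold for the interaction (6 without LL 6) and 1 to 5 for any difference (5 without HL 8C). The share of all probes was not computed in those fits, so these counts are no result about the members.

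The members were sorted into 17 substrate classes by Slc family number, so that a class can hold members of another or unknown substrate, and each of the 7 classes with 12 or more members held genes on both sides of 0. In mitochondrial carriers, the largest class with 27 members, the high post-weaning diet went with 12 higher and 15 lower levels, with differences of -0.22 to 0.14 and a median of -0.02. Carriers of iron, zinc, copper and manganese had 10 higher and 11 lower, and those of amino acids and peptides 6 higher and 12 lower, with the widest range of the larger classes, from -0.34 for Slc7a9 to 0.29 for Slc7a11. Among the 13 carriers of sodium, chloride, bicarbonate and potassium, 3 were higher and 10 lower, with a median of -0.09 and 1 member, Slc4a2, under the unadjusted threshold. Sugar carriers were higher in 3 and lower in 9. In all, 5 classes held a member under an unadjusted p of 0.05 for the post-weaning diet, and no class held a member that passed the adjustment. Relative to the median of the detected genes, 4 of the sodium, chloride, bicarbonate and potassium carriers lay above and 9 below (class median -0.0872 from it) with quantile normalization, and 1 above and 12 below (-0.0612 from it) with median scaling. Mitochondrial carriers had 13 above and 14 below with either scaling, amino acid and peptide carriers 7 above and 11 below with either, and metal carriers 11 above and 10 below with quantile normalization and 9 above and 12 below with median scaling.

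**Figure D3:**
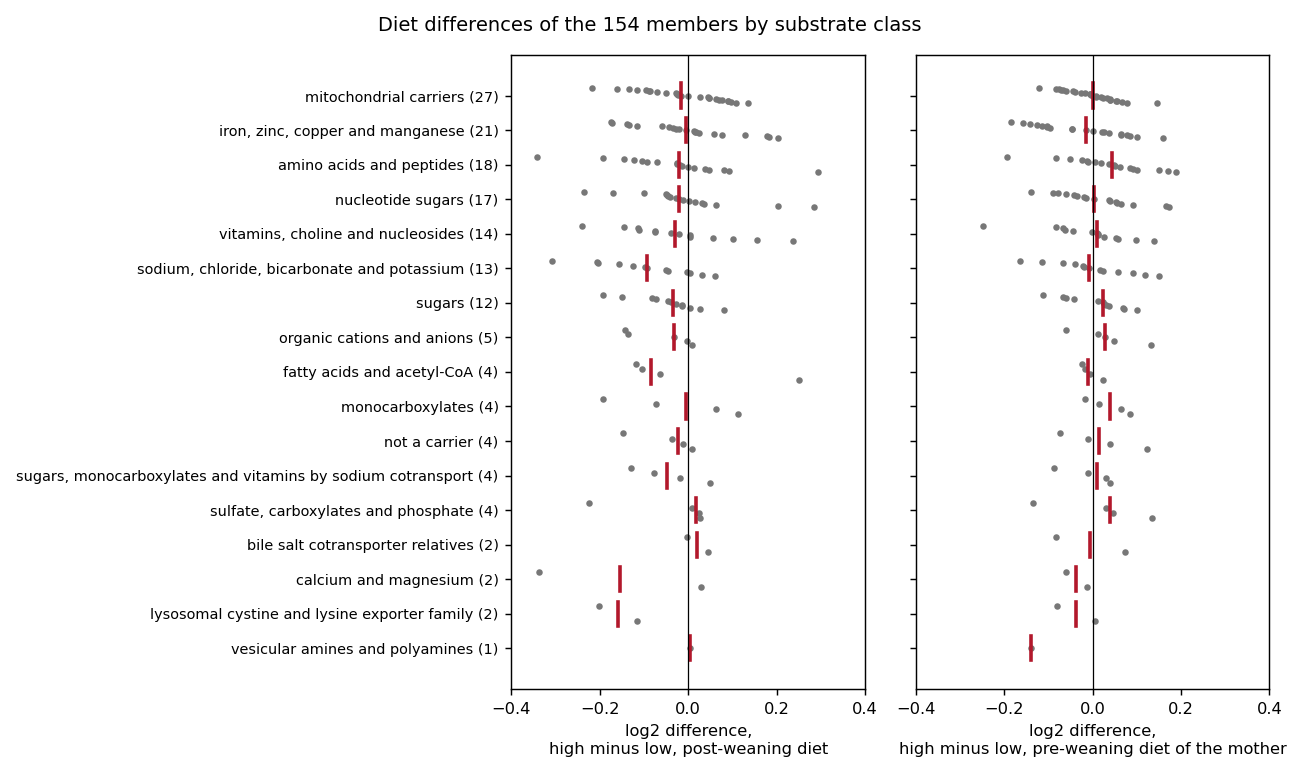
Log2 difference of each of the 154 members by substrate class, for the post-weaning diet (left, HH and LH minus HL and LL) and the pre-weaning diet (right, HH and HL minus LH and LL). Each gray point is 1 gene, red bars are class medians, and the number of genes stands in brackets. All post-weaning differences lie between -0.34 and 0.29, and the median of the 13 sodium, chloride, bicarbonate and potassium carriers is -0.09, or 0.003 under median scaling.

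Genes that work with the solute carriers were read as a list: the sodium pump, ion channels, carbonic anhydrases, water channels, scaffolds and the related Slco carriers. Of 22 listed genes 20 were on the array and 15 were detected, and 0 of the 15 passed the adjustment for either diet. For the post-weaning diet 9 had positive and 6 negative differences, with 1 of 15 under the unadjusted threshold, against 4.44% of the detected genes: the organic anion carrier Slco4a1 (-0.20, limma unadjusted p = 0.0219). For the pre-weaning diet 7 were higher and 8 lower. Relative to the median of the detected genes, 9 lay above and 6 below for the post-weaning diet with quantile normalization, and 10 above and 5 below with median scaling. The epithelial sodium channel subunit Scnn1a, which absorbs sodium beside Slc9a3, had a post-weaning difference of 0.04, and the chloride channel gene Cftr one of 0.02.

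Differences between single mice were larger than those between diets. The SD of a member over the 24 mice was 0.239 at the median, close to the 0.237 of all detected genes, and 6 members (3.90%) had an SD above 0.5, against 3.29% of the detected genes. Slc23a3 and Slc9a3 were highest, each with an SD of 0.67, followed by Slc11a1 with 0.60, Slc26a3 with 0.53 and Slc2a6 and Slc35b2 with 0.51 each. The next 6 were Slc13a2, Slc4a4, Slc44a1, Slc1a1, Slc7a11 and Slc35a1. These 12 genes were chosen for their spread, and correlations of their levels over the 24 mice were computed with each other and with 3 marker sums and the detected share, 114 relations in all, with p-values adjusted over them by the Benjamini-Hochberg procedure.

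Slc9a3, Slc26a3 and Slc13a2 varied together. Slc9a3 was highest in LL 6, HL 10B and HH 10B, at 12.34, 12.04 and 11.61, and lay between 9.25 and 11.43 in the other 21 mice. The same 3 mice had the highest Slc13a2, at 12.19, 12.31 and 12.18 against 11.77 or less elsewhere, and the highest Slc26a3, at 10.24, 9.56 and 10.06 against 9.50 or less. Over the 24 mice Slc13a2 and Slc9a3 had r = 0.838 and rho = 0.776 (permutation p = 1e-05, the smallest that the resamples can give, and 7e-05, adjusted p = 0.000228 and 0.0013), with r = 0.802 without the 2 mice farthest from the median and 0.698 without LL 6, HL 10B and HH 10B. Slc26a3 and Slc9a3 had r = 0.748 and rho = 0.633 (permutation p = 4e-05 and 0.00136, adjusted p = 0.00038 and 0.00705), with r = 0.627 and 0.535 after these removals. Within groups, after taking off each group mean, r was 0.841 for the first pair and 0.754 for the second.

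The same 3 mice had the lowest summed level of neutrophil and macrophage markers (S100a8, S100a9, Lyz2, Cd14, Itgam and Il1b, of which 5 of 6 were detected on 12 or more arrays and Itgam on 0), at 12.55 in LL 6, 12.29 in HL 10B and 12.80 in HH 10B, against 13.32 or more elsewhere. Slc13a2 went against this sum, with r = -0.866 and rho = -0.805 (permutation p = 1e-05 and 4e-05, adjusted p = 0.000228 and 0.0013), r = -0.79 without the 2 farthest mice and r = -0.693 without the 3. Slc7a11 (ILMN_2948143), the cystine and glutamate exchanger, went with it, with r = 0.743 and rho = 0.737 (permutation p = 4e-05 and 8e-05, adjusted p = 0.00038 and 0.0013) and r = 0.635 and 0.523 after the same removals. Slc11a1 (ILMN_2675811), a metal carrier in the phagosomes of macrophages and neutrophils, had r = 0.622 and rho = 0.31 (permutation p = 0.00136 and 0.141, adjusted p = 0.00443 and 0.204), and r fell to 0.067 without the 3 mice, so that this relation rests on them. With the epithelial sum, Slc11a1 had r = -0.685 and rho = -0.64 (permutation test, adjusted p = 0.00109 and 0.00642), and r = -0.68 without the 3 mice. The probe of Slc7a11 missed the detection limit in HH 10B and HL 10B, and also in HL 2A and LL 3B, the arrays with the lowest detected share. Its level also went with the detected share (r = 0.608 and rho = 0.633, permutation p = 0.00143 and 0.00113, adjusted p = 0.00453 and 0.00644). LL 6, HL 10B and HH 10B also had the highest smooth muscle sums, at 15.52, 15.35 and 15.15, and their epithelial sums of 15.45, 15.47 and 15.60 lay within the range of the other mice, 14.51 to 15.64. Over the 24 mice Slc9a3 went with the epithelial sum (r = 0.562 and rho = 0.674, permutation test, adjusted p = 0.0106 and 0.00449). So did Slc26a3 (r = 0.614 and rho = 0.674, adjusted p = 0.00533 and 0.00449) and Slc13a2 (r = 0.504 and rho = 0.483, adjusted p = 0.0242 and 0.0439). Without LL 6, HL 10B and HH 10B, r was 0.519, 0.597 and 0.412. With the smooth muscle sum, r was larger, at 0.738 for Slc9a3, 0.747 for Slc26a3 and 0.697 for Slc13a2. It was 0.371, 0.39 and 0.215 without those 3 mice. With the neutrophil and macrophage sum, r was -0.758 for Slc9a3 and -0.761 for Slc26a3, and -0.455 and -0.488 without the 3 mice. The mice came from 3 of the 4 groups, and HL 10B and HH 10B share their mother's label. The parts of cell composition and of library quality in these levels were not tested.

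**Figure D4:**
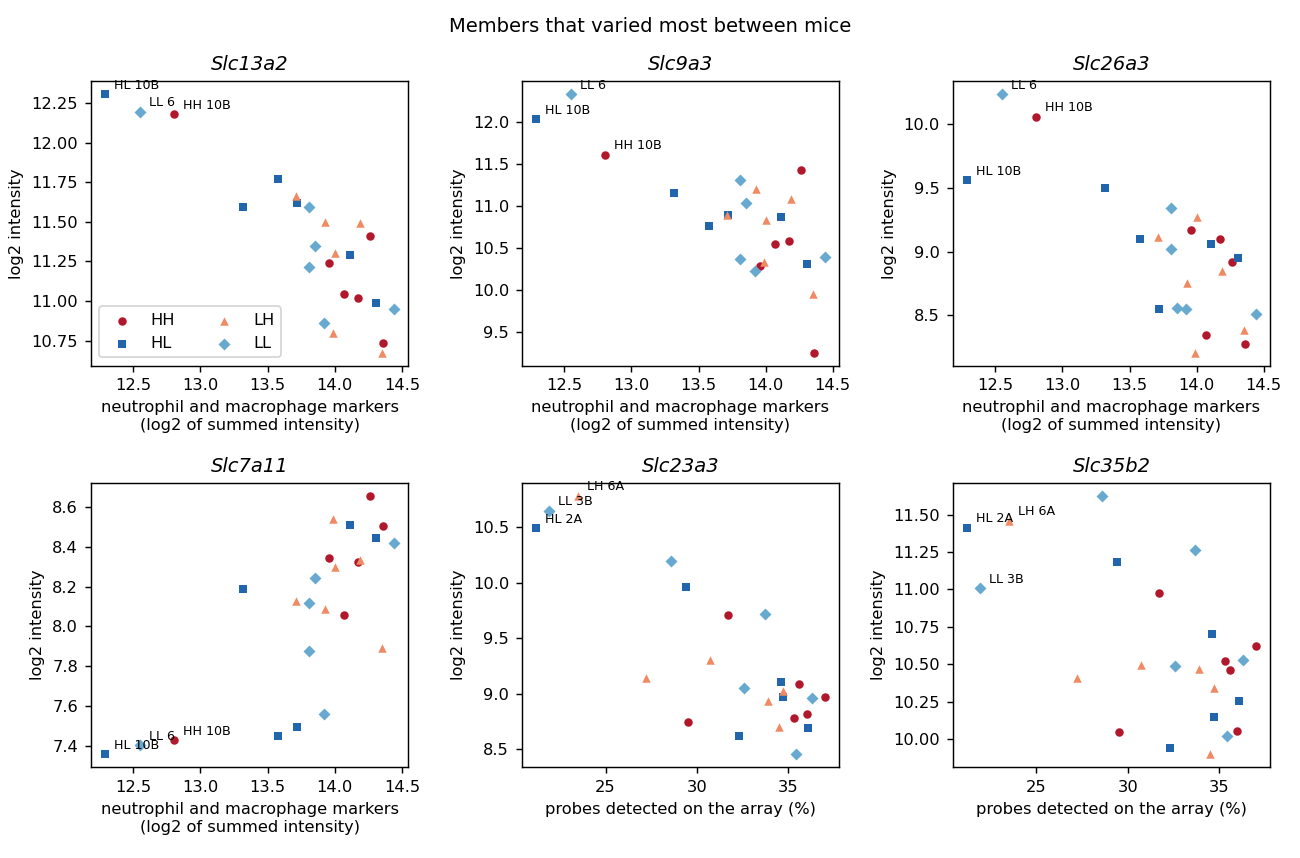
Log2 intensity of 6 of the 12 most variable members against the summed level of neutrophil and macrophage markers (4 panels) or the share of probes detected on the array (Slc23a3 and Slc35b2). Each point is 1 mouse, colored by group. HH 10B, HL 10B and LL 6 have the highest Slc13a2, Slc9a3 and Slc26a3 and the lowest Slc7a11, and HL 2A, LL 3B and LH 6A have the highest Slc23a3.

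The promoters of these 3 genes, which moved together between mice, are shown to compare their upstream sequence. Each window runs 5′ to 3′ from 250 bases before to 50 bases after the gene's start, from RefSeq (GRCm38.p6), and capitals mark the motifs searched on both strands: GGGCGG (the GC box), TATAAA (the TATA box) as well as AGGTCA and the variants GGTTCA and also AGTTCA, the repeat units from which vitamin D response elements are built.
Slc9a3, chr13:74121163-74121462, plus strand: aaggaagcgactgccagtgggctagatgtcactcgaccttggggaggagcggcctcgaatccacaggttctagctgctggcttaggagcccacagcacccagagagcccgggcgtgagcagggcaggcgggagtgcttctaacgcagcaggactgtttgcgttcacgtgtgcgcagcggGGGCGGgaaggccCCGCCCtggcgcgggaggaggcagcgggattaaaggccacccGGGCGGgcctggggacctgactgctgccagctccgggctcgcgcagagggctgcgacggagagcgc
Slc26a3, chr12:31437969-31438268, plus strand: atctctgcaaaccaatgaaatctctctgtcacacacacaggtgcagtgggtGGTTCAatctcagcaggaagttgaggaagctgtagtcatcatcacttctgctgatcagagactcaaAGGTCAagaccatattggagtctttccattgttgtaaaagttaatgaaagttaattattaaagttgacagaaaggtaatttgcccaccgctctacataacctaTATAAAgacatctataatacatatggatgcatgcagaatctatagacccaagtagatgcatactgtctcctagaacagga
Slc13a2, chr11:78422185-78422484, minus strand: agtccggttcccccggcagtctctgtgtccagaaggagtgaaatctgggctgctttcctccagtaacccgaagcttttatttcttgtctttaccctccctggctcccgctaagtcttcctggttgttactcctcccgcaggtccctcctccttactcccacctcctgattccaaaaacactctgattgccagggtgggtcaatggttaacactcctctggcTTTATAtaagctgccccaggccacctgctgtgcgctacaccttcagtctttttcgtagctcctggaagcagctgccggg
Slc9a3 held 3 GC boxes, 71, 58 and 16 bases before its start, and none of the other motifs. Slc26a3 held a TATA box 30 bases before its start and 2 repeat units, 199 and 133 bases before it, which do not stand 3 bases apart. Slc13a2 held the letters TATAAA on the opposite strand, 29 bases before its start, within a stretch that reads TTTATATAAG on its own strand. Other forms of the TATA box were not searched. No motif was in all 3 windows. Of the 154 members 119 matched a 300-base window, and 97 of them (81.5%) held a GC box, against 68.6% of the 7227 detected genes and 38.2% of all 27025 genes in the table. A TATA box was in 8.40% of the members, 9.69% of the detected genes and 15.7% of all genes. A single repeat unit was in 36.1% of the members, 31.8% of the detected genes and 38.1% of all genes, and a complete vitamin D element (2 units in the same direction with 3 bases between them) was in 0 of the 119 windows of members and in 8 of the 27025 (0.0296%). A match of letters is not a bound site, and elements outside these windows were not searched.

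A second set of members had high or low levels on the arrays with the lowest detected share, with overlap for Slc35b2 and Slc35a1. Slc23a3 (ILMN_1218441), a member of the ascorbate carrier family, was at 10.78 in LH 6A, 10.65 in LL 3B and 10.49 in HL 2A, the 3 arrays with the lowest detected share, and between 8.45 and 10.20 on the others. Its correlation with the detected share was r = -0.824 and rho = -0.659 (permutation p = 1e-05 and 0.00063, adjusted p = 0.000228 and 0.00449), with r = -0.717 without the 2 farthest arrays and -0.543 without the 3. Slc23a3 went as closely with the epithelial sum (r = -0.849 and rho = -0.652, permutation p = 1e-05 and 0.00084, adjusted p = 0.000228 and 0.00538), with r = -0.719 and -0.67 after these removals. Slc35b2, which supplies the Golgi with the sulfate donor PAPS, went with Slc23a3 (r = 0.899 and rho = 0.863, permutation p = 1e-05 each, adjusted p = 0.000228 and 0.00114), also without the 3 arrays (r = 0.928). Levels of Slc35b2 on the 3 arrays, 11.01 to 11.46, lay within the range of the others, 9.90 to 11.63. Slc1a1, a glutamate carrier, and Slc35a1, the CMP-sialic acid carrier, were lowest or near lowest on those arrays, at 7.28 to 7.68 and 7.98 to 8.57, against 7.71 or more and 8.39 or more elsewhere. For Slc35b2, Slc1a1 and Slc35a1 the relation with the detected share was weaker by rank or without the 3 arrays. Slc35b2 had r = -0.601 and rho = -0.441 (permutation p = 0.00193 and 0.0309, adjusted p = 0.00579 and 0.0665), and r = -0.358 without the 3. Slc1a1 had r = 0.741 and rho = 0.479 (permutation p = 8e-05 and 0.0181, adjusted p = 0.000507 and 0.0439), and r = 0.374 without them. Slc35a1 had r = 0.695 and rho = 0.341 (permutation p = 0.00053 and 0.103, adjusted p = 0.00216 and 0.163), and r = 0.199 without them, so that its relation rests on those arrays. With the epithelial sum, Slc35b2 had r = -0.662 and Slc1a1 r = 0.737 (permutation p = 0.00038 and 8e-05, adjusted p = 0.00167 and 0.000507), and r = -0.534 and 0.53 without the 3 arrays. The parts of RNA quality and of epithelial content in these levels were not tested. Without the 3 arrays, 54 members had higher and 100 had lower levels on the high diet after weaning, and 0 passed the adjustment.

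Agreement between probes bounds how far a single probe can be read. Of the 154 members 82 had another probe, and 37 had another probe that was itself detected on 12 or more arrays, 48 probes in all. The correlation over the 24 mice between such a probe and the brightest probe of its gene had a median of 0.51 and was below 0 for 7 of the 48. Slc24a3, Slc4a2 and Slc25a28 had no other probe, and the other probes of Slc7a9, Slc6a9 and Slc39a3 did not meet the detection rule.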

How the data were processed

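The authors deposited raw probe intensity for each array, a detection score per probe, which is a fraction from 0 to 1, and log2 values that they had quantile normalized in GeneSpring. The deposited log2 values were not centred on probe medians. Quantile normalization was repeated on the log2 of the raw intensities with limma 3.58.1 in R 4.3.3, and the largest gap to a deposited log2 value was 0.000415. Of 45281 probes, 34885 had a single symbol, 18 had several and the rest none, and each gene was read from its brightest probe. Probes above the 20th percentile of an array on 80% of the arrays of either group compared were fitted with 1 mean per group (HH, HL, LH, LL) by lmFit and eBayes, with Benjamini-Hochberg adjustment over all of them. All 154 members passed this filter. The test was tried first on simulated data. Named are the 15 brightest and 12 most variable members, the 8, 8 and 4 with the smallest p for the post-weaning diet, the pre-weaning diet and the interaction, those at the detection threshold, and carriers with a known role in the colon. Members and lists were chosen with earlier results of these data known. Mother labels were taken from the sample labels, and 4 were shared by a pair of mice on the same maternal diet and different post-weaning diets, so that the mother was tried as a random block (within-mother correlation 0.139). The alternatives were the scaling, background correction, filter, test, variance model, probe choice, detection rule and arrays used. The number of arrays limits the precision. Promoter windows came from RefSeq. Permutation tests were two-sided with 100000 resamples.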

Additional observations from a re-analysis of the deposited data

Results flagged for a closer look

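Of 200 sets of 6 mice (50 named members in 4 groups), 13 held a mouse whose level stood far from the other 5, where chance flags about 1 in 20. In HH mice, Slc23a3 was high in HH 10 (9.71, against 8.75 to 9.09 in the others) and Slc35e2 high in HH 5 (8.63). Slc39a4, a zinc importer, was low in HH 5 (10.4). In HH 10B, Slc2a6, a glucose carrier family member of lysosomes, was low (7.67, against 8.86 to 9.40) and Slc10a7 was high (7.53). In HL mice, HL 10 was low for Slc12a2 (11.6, against 12.7 to 13.4) and for Slc5a8 (11.1, against 12.1 to 12.5), and high for Slc39a3 (7.85). In LH mice, LH 6A, an array with a low share of detected probes, was high for Slc23a3 (10.8, against 8.70 to 9.30) and for Slc35a2 (8.17). In LL mice, Slc40a1 was high in LL 12 (11.9), Slc35b1 low in LL 2C (10.9) and Slc7a9 high in LL 6 (8.64, against 7.31 to 7.78).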

How the results depend on the processing

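The count of members past the adjustment was 0 for the post-weaning diet, the pre-weaning diet, the interaction and the 4 groups in every alternative that was run, which includes the methods' t-test for the 2 diets and, as an alternative chosen after seeing the data, the fit without the 3 arrays of lowest detected share. Slide as a block was not run, since the files name no slide. With the replicate block by mother label, 0 members passed, 7 had an unadjusted p under 0.05 for the post-weaning diet, and 63 were higher on the high diet, and the block changed no call. Leaving out 1 array gave 0 members past the adjustment, and 3 (without LL 13) to 11 (without LL 2C) members under the unadjusted threshold for the post-weaning diet and up to 8 (without HL 2A) for the pre-weaning diet. Median scaling moved the median of the detected genes by 0.071 (post-weaning), 0.127 (pre-weaning) and 0.333 (interaction), left 1 member under the unadjusted threshold for the post-weaning diet, and gave 143 of 154 members higher for the pre-weaning diet, as were 93.3% of the detected genes. Under it, Slc30a1 and Slc35a2 changed sign for the pre-weaning diet, to 0.0575 and 0.0120. The other alternatives in which these genes were refitted, and the 24 fits that left out 1 array, kept the sign of the 8 named members for each diet. With neqc background correction, the post-weaning difference of Slc7a9 was -0.89 and that of Slc39a3 -0.40. Under the intensity trend, 3 members had an unadjusted p under 0.05 for the post-weaning diet. The share of all probes under the unadjusted threshold was not computed in these refits, so the counts at that threshold are no result about the members. Of the members detected on all 24 arrays, 28 had positive and 64 negative post-weaning differences. Signals close to background and 6 mice per group limit what these arrays can show.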
